A study of Mus musculus with 38 samples.

Results

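The genes described here are 34 markers of T cells, innate lymphoid cells and natural killer (NK) cells, in RNA from the intestinal tract of mice. They were taken as a list of gene symbols and matched to Ensembl identifiers in 3 tables of read counts. All 34 were found among the 55416 genes of each table. They were divided by known role into 15 genes shared by T cells, 4 helper genes, 3 regulatory genes, 10 cytotoxic and NK genes, and 2 genes of tissue residence and activation. The series compared mice with colorectal cancer that received black rice or a control diet. Its 38 libraries fell into 3 sets. The set whose titles carry the name Apc had 18 libraries from 3 arms, black rice, control and WT, each of them holding 3 F and 3 M libraries, named by the code in their titles. The set named AOM had 12 libraries, from black rice and control arms with the same codes. The third set had 4 black rice and 4 control libraries with no code. The labels gave no treatment for WT, no Apc allele, no expansion of AOM, no meaning of F and M, and no age or strain. The name of the third table carried the letters FMT, which no label explained. No label said whether libraries of a group came from separate animals, so the p-values measure the spread between these libraries, which may be technical.

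T cells recognise antigen through a receptor whose signal is carried by the CD3 chains (Cd3d, Cd3e, Cd3g and Cd247) and then by the kinases Lck and Zap70 and the adaptor Lat. Helper cells carry the coreceptor CD4, regulatory cells restrain other lymphocytes under the transcription factor Foxp3, and cytotoxic T cells and NK cells kill targets with perforin and granzymes. In the gut, many T cells lie within the epithelium, held there by the integrin that Itgae helps to form. Tcf7 encodes TCF-1, a transcription factor of T cells that is also part of Wnt signalling in epithelial cells. In bulk tissue, fewer cells of a type and less RNA per cell cannot be told apart.

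Promoter sequences were taken for 24 of the 34 members from RefSeq (build GRCm38.p6). Cd2, Cd6, Cd28, Cd4, Icos, Cd8b1, Klrd1, Ccl5, Itgae and Cd69 had no entry. The promoters of 2 CD3 chains and 2 granzymes are printed as examples of the shared T cell and the cytotoxic genes. Their levels or differences are given in the values that follow. Each sequence runs 5′ to 3′ on the gene's strand, from 250 bases before to 50 bases after the start. Capitals mark matches, on either strand, of the core letters TGTGGT bound by RUNX factors or AGGAAG bound by ETS factors, 2 families known for T cell gene control. Cd3d lies at chr9:44981536-44981835 (+), Cd3e at chr9:45009562-45009861 (-), Gzma at chr13:113100932-113101231 (-) and Gzmb at chr14:56262285-56262584 (-).
Cd3d: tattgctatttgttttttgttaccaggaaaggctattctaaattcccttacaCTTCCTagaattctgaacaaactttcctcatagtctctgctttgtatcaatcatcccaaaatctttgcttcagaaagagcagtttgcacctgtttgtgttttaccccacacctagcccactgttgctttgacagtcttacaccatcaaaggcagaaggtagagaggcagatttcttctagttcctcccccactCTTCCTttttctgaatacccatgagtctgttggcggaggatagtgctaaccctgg
Cd3e: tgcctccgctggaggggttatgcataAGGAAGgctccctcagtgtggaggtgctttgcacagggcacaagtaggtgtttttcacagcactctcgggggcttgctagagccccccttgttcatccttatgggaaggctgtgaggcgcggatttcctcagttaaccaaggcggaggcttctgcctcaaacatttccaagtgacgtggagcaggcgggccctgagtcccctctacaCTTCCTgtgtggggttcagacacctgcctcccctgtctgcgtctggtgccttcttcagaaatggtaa
Gzma: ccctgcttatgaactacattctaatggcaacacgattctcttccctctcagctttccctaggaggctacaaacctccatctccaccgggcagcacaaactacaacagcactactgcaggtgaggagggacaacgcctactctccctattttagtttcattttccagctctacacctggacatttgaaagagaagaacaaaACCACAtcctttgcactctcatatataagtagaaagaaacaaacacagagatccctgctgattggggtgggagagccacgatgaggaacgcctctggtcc
Gzmb: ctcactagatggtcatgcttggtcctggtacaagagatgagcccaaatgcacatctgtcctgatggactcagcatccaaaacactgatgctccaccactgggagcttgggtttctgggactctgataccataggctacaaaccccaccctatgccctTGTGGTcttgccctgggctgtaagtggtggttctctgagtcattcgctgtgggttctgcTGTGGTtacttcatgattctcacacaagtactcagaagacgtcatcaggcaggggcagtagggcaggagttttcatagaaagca
Both CD3 promoters held 2 matches of the ETS letters and none of the RUNX letters. Gzma held 1 and Gzmb 2 matches of the RUNX letters, and neither held the ETS letters. The start of Cd3d lies 1355 bases from that of Cd3g, its neighbour. Over all members, 10 of 30 promoter entries (33.3%) held the RUNX letters, against 16.8% of 32851 promoters of the same length. The 10 entries belonged to Gzma, Gzmb, Prf1, Nkg7, Ncr1, Il7r, Lat, Lck and Zap70. The ETS letters stood in 17 entries (56.7%, against 35.4% of all), and the letters CTTTGA bound by TCF factors in 6 (20%, against 16%). Genes with the ETS letters were Bcl11b, Cd247, Cd3d, Cd3e, Cd5, Ctla4, Foxp3, Il2ra, Il7r, Lat, Lck, Nkg7, Prf1, Tbx21 and Zap70. Il7r, Lat, Lck, Nkg7, Prf1 and Zap70 thus stood in both the RUNX and the ETS list, so the split of the 4 printed promoters did not hold over the members. These matches describe the letters alone.

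Libraries of the Apc set held 44.8 to 61.9 M counted reads, 11 of the AOM set 37.9 to 55.1 M, and those of the third set 66.6 to 91.1 M. The remaining AOM library, black rice F replicate 3, had 5.37 M reads, and a hepatocyte list took 21.5% of its reads, against at most 0.0106% in the 11 others. This library was left out of all AOM results, except where all 12 libraries are named. Its 34 members summed to 33.3 CPM (counts scaled by the total of each library), below the 44.5 to 274 CPM of the others, and 11 members lay below all others. Epithelial markers such as Epcam (1207 to 1607 CPM in the third set) were abundant in the libraries of all 3 sets that were analysed.

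No member passed the threshold, an edgeR adjusted p under 0.05 over all genes, in any of the 15 comparisons made. DESeq2 called Tcf7 and Cd28, both lower with black rice, for Apc over both codes (0.992% of all genes called) and in F alone (1.21%). It also called Cd8b1 in the AOM test of whether the diet difference depended on code (0.995%). The limma-voom fit called Tcf7 in the same 2 Apc comparisons (0.0786% and 0.476% of all genes). Differences are therefore given as values with their standard errors (SE), and the counts of members are read against the share of all tested genes. Members were correlated over libraries. Correlations with Cd3e had medians of 0.76 in the Apc set (0.20 to 0.96), 0.76 in the AOM set (-0.48 to 0.93) and 0.80 in the third set (0.36 to 0.98). Counts of members are therefore not counts of independent results. All 34 members were tested in every set.

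The first comparison asked whether black rice altered these genes in the Apc set. Levels were lower on black rice for 30 of 34 members, against 50.9% of all 21624 genes tested, with a median log2 difference of -0.74 (all genes -0.01). At an unadjusted p under 0.05, 18 members were lower and 0 higher, against 6.06% and 4.21% of all genes. The share of genes that passed the adjusted threshold was 0.0139% (3 genes), none of them a member. The median was -0.45 without control M replicate 3, with 28 members lower, and -1.08 without black rice M replicate 3, with 34 lower. The 15 shared T cell genes were lower without exception (median -0.78), as were the 4 helper, 3 regulatory and 2 residence genes. Among the 10 cytotoxic and NK genes 6 were lower and 4 were higher.

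**Figure D1:**
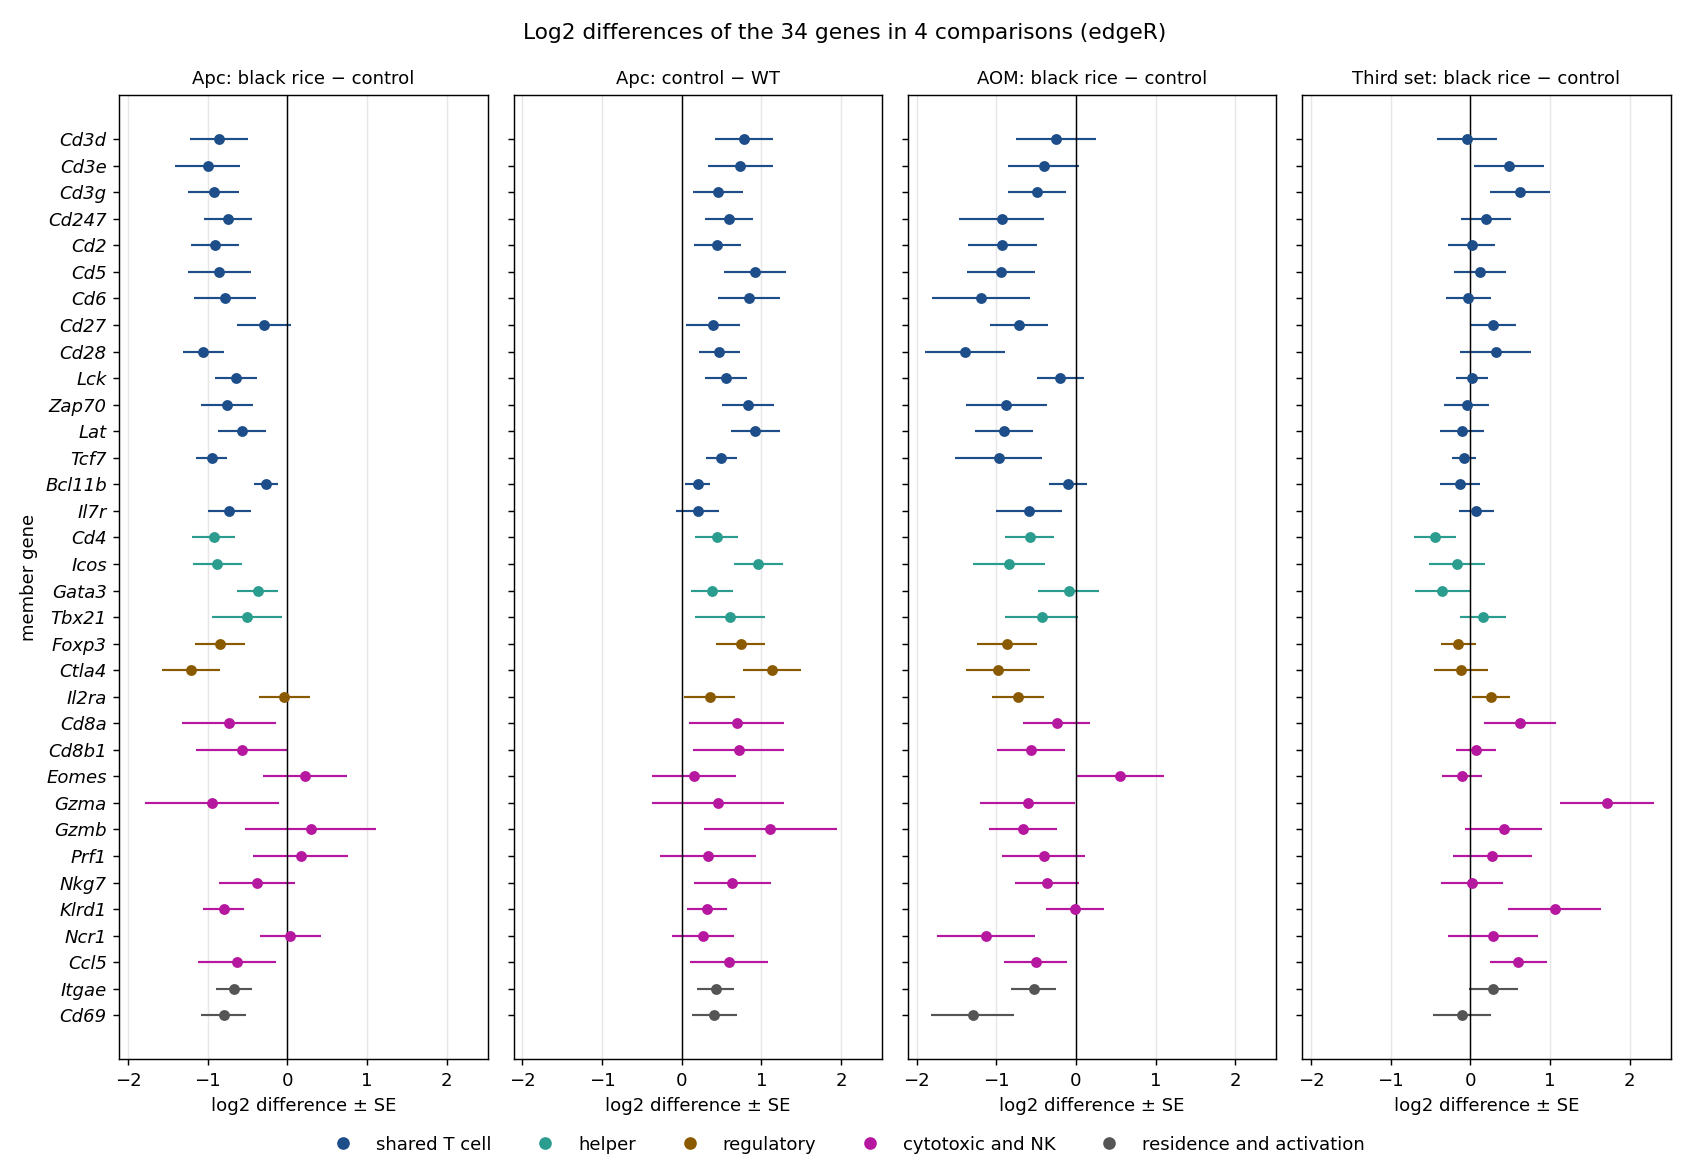
Log2 differences of the 34 members with standard errors (edgeR, horizontal axis) in 4 comparisons, coloured by role; the vertical line marks no difference. Black rice lies below control for 30 members in the Apc set and 33 in the AOM set, control lies above WT for 34, and the third set has 13 below and 21 above.

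Tcf7 (ENSMUSG00000000782) had the smallest p of the shared genes. In F libraries it measured 6.12, 7.15 and 10.02 CPM under black rice and 11.9, 21.8 and 24.4 CPM on control. In M libraries it measured 5.82, 7.10 and 11.1 CPM under black rice and 12.2, 14.4 and 9.62 CPM on control. The F groups did not overlap, whereas in M the highest black rice library lay above the lowest control library. Means were 7.88 ± 2.16 and 15.7 ± 5.95 CPM (SD, n = 6 each), a log2 difference of -0.95 (SE 0.20, edgeR adjusted p = 0.131), with 6 of 6 black rice libraries below the control mean of their code. DESeq2 gave -0.93 (adjusted p = 0.0018) and limma-voom -1.01 (adjusted p = 0.0471). The 5 Wnt feedback genes Axin2, Nkd1, Notum, Lgr5 and Znrf3, a list added after the data were seen, summed to 77.5 to 98.9 CPM under black rice and 80.9 to 118 CPM on control. Their median log2 difference was 0.03. Over the 18 libraries, log2 levels of Tcf7 correlated at 0.28 with the sum of these Wnt genes. With the sum of B cell markers the correlation of Tcf7 was 0.77, the highest of the members, whereas that of Cd3e was 0.08. The part of B cells in the Tcf7 values was not tested.

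The receptor chains differed by similar amounts. Cd3e (ENSMUSG00000032093) lay at 4.45, 4.22 and 1.85 CPM under black rice and 6.09, 5.10 and 8.73 CPM on control in F. In M it lay at 1.02, 0.566 and 3.62 CPM under black rice and 1.75, 2.49 and 6.97 CPM on control. Every F control library was above every F black rice library, but black rice M replicate 3 exceeded 2 of the 3 M controls. The log2 difference was -0.999 (SE 0.41) for Cd3e, -0.93 for Cd3g, -0.86 for Cd3d and -0.74 for Cd247. Cd28, the costimulatory receptor, differed by -1.05 (SE 0.26, edgeR adjusted p = 0.202), from 6.33 ± 2.87 to 2.97 ± 0.882 CPM (SD, n = 6 each). DESeq2 gave Cd28 a difference of -1.04 (adjusted p = 0.0135). Cd2, the adhesion receptor, differed by -0.91, the surface receptors Cd5 and Cd6 by -0.85 and -0.78, and Il7r, the interleukin 7 receptor, by -0.73. The signalling genes Zap70, Lck and Lat differed by -0.75, -0.65 and -0.57. Smallest were the costimulatory receptor Cd27 (-0.29, SE 0.34) and the lineage factor Bcl11b (-0.27, SE 0.16).

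Cd4 (ENSMUSG00000023274) led the helper genes. It measured 9.44, 9.78 and 11.3 CPM under black rice and 19.0, 13.7 and 32.9 CPM on control in F. In M it measured 4.09, 7.30 and 14.9 CPM under black rice and 9.37, 15.9 and 18.9 CPM on control. The groups were separate in F and overlapped in M. The log2 difference was -0.93 (SE 0.27, edgeR adjusted p = 0.307), lower in 5 of 6 libraries. Icos, a costimulatory receptor of activated helper cells, differed by -0.88 (SE 0.31), while the helper lineage factors Gata3 and Tbx21 differed by -0.37 (SE 0.26) and -0.50 (SE 0.44).

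Among regulatory genes Ctla4 (ENSMUSG00000026011), an inhibitory receptor, measured 1.29, 1.08 and 0.305 CPM under black rice and 3.49, 2.40 and 2.61 CPM on control in F. In M it measured 1.61, 0.748 and 3.28 CPM under black rice and 4.66, 2.36 and 2.71 CPM on control. Black rice M replicate 3 was the sole black rice library that reached the control range. The log2 difference was -1.21 (SE 0.37, edgeR adjusted p = 0.31). Foxp3 lay at 0.504 to 0.650 CPM in black rice F against 1.28 to 1.61 CPM in control F. In M it lay at 0.529, 1.01 and 2.43 CPM under black rice and 1.02, 1.49 and 2.55 CPM on control, and its log2 difference over both codes was -0.85 (SE 0.31). Il2ra, the interleukin 2 receptor alpha chain, stood apart from these, at 2.42 ± 1.15 and 2.47 ± 0.179 CPM (log2 difference -0.04, SE 0.32).

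The cytotoxic genes varied widely among libraries of one group. The 10 genes summed to 59.6, 58.8 and 17.0 CPM in black rice F and 69.6, 49.3 and 55.05 CPM in control F. In M they summed to 20.5, 7.04 and 53.7 CPM under black rice and 12.02, 21.6 and 85.4 CPM on control. The diet groups overlapped in both codes, and control M replicate 3 held the highest sum of these 12 libraries. Gzmb, a granzyme, spanned 0.404 to 18.9 CPM under black rice and 0.545 to 15.7 CPM on control (log2 difference 0.29, SE 0.82). Gzma, another granzyme, spanned 0.162 to 5.63 and 0.658 to 12.9 CPM (-0.94, SE 0.84). Differences of the same kind, small against their errors, were found for Prf1 (perforin, 0.17, SE 0.59), Eomes (a lineage factor, 0.22, SE 0.53), Ncr1 (an NK receptor, 0.04, SE 0.38) and Nkg7 (a granule protein, -0.38, SE 0.48). The coreceptor genes Cd8a and Cd8b1 differed by -0.73 (SE 0.59) and -0.57 (SE 0.57), and the chemokine Ccl5 by -0.63 (SE 0.49). Klrd1, the CD94 receptor of NK cells, was the exception in this group. It lay at 3.50, 3.41 and 1.99 CPM under black rice and 5.60, 4.97 and 4.09 CPM on control in F, and at 1.24, 2.08 and 2.45 against 3.10, 2.91 and 4.75 CPM in M. Its groups did not overlap in either code (log2 difference -0.80, SE 0.25, edgeR adjusted p = 0.33).

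**Figure D2:**
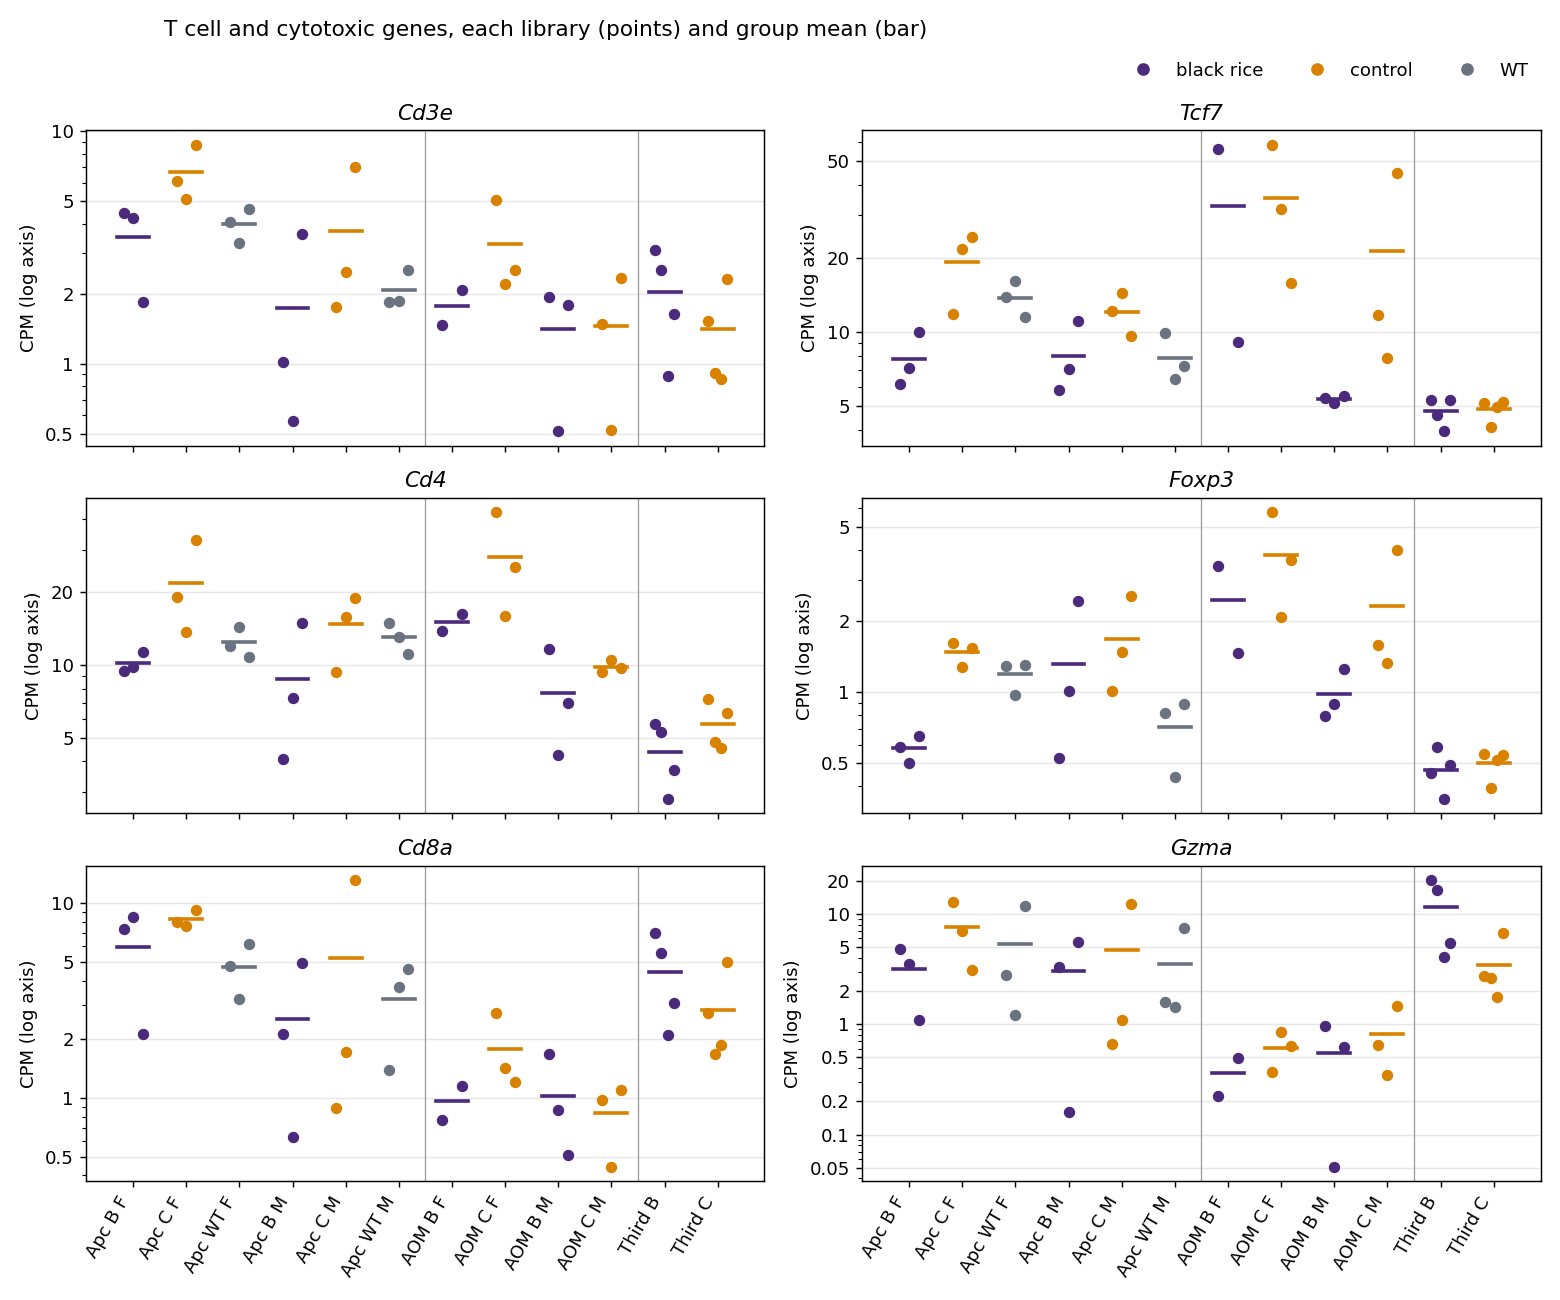
CPM (log axis) of 6 members in each library (points) with the mean of each group (bars), by set, arm and code. In the Apc set Tcf7 and Cd4 lie higher in control F (11.9 to 24.4 and 13.7 to 32.9 CPM) than in black rice F (6.12 to 10.02 and 9.44 to 11.3 CPM), while Gzma spans 0.162 to 12.9 CPM over black rice and control.

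Of the genes of residence and activation, Itgae measured 6.47 ± 2.15 CPM under black rice and 10.3 ± 3.44 CPM on control (SD, n = 6 each). The log2 difference was -0.67 (SE 0.23, edgeR adjusted p = 0.373), lower in 6 of 6 libraries, and -0.43 without control M replicate 3. Cd69, an early activation antigen, differed by -0.80 (SE 0.29).

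By code, the Apc diet difference was read in 3 against 3 libraries. In F, 31 members were lower (49.5% of all genes), 12 of them at an unadjusted p under 0.05 (5.73% of all), and edgeR called 0% of all genes. The F groups did not overlap, black rice lower, for 15 members, against 10% of all genes. These were Cd3e, Cd3g, Cd247, Cd2, Cd28, Zap70, Tcf7, Cd4, Icos, Gata3, Foxp3, Ctla4, Klrd1, Itgae and Cd69. In M, 30 members were lower (51.7% of all genes), 3 at an unadjusted p under 0.05 (4.86% of all), and the groups were separate for Klrd1 alone (8.65% of all). The adjusted threshold was passed by 0.0324% of all genes in M. The median difference was -0.76 in F and -0.55 in M. The M value moved with single libraries. It was -1.26 without black rice M replicate 3 and -0.13 without control M replicate 3, and -0.30 and -0.25 without black rice M replicate 1 or 2.

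The difference between F and M was tested directly. Of the 34 members 23 had a more negative difference in F (48.8% of all genes), with a median of -0.36, and 0 passed an unadjusted p of 0.05 in either direction, against 4.58% and 4.31% of all genes. The adjusted threshold was passed by 0% of all genes. Foxp3 (-1.04, SE 0.63) and Ctla4 (-0.94, SE 0.72) had the most negative values and Eomes (0.80, SE 1.05) the most positive. Without black rice M replicate 3 the median was 0.31, with 7 members lower, so its sign rested on that library.

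Libraries of the Apc set also differed in other cell types. B cell markers were lower on black rice for 10 of 10 genes, with sums of 9.06 to 202 CPM against 40.9 to 501 CPM on control. Markers of all leukocytes were lower for 6 of 6, with sums of 87.4 to 298 against 173 to 535 CPM. Plasma cell sums were 1128 to 7959 and 5559 to 14179 CPM, with 7 of 7 genes lower. Smooth muscle markers were higher for 10 of 10, at 3519 to 6690 against 2707 to 4155 CPM. Epithelial markers were lower for 5 of 8 (median log2 difference -0.03). The part of these cell types in the T cell values was not tested. A log2 ratio of Cd3e to the leukocyte gene Ptprc was taken on read counts, with a pseudocount of 0.5 reads. It differed by -0.791 between black rice and control (exact permutation test within code, two-sided p = 0.13, adjusted p = 0.686 over 24 such tests).

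Control and WT libraries of the Apc set were compared next. These comparisons share the control or WT libraries with the others of this set. All 34 members were higher in control, against 50.9% of all genes, with a median log2 difference of 0.53. At an unadjusted p under 0.05, 9 were higher, against 2.21% of all genes, and edgeR called 0% of all genes. The CPM groups were separate for Icos and Ctla4, against 0.217% of all genes. Without control M replicate 3 the median was 0.35, with at most 4 members lower in any fit that left out a library.

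Ctla4 measured 2.36 to 4.66 CPM in the 6 control libraries (median 2.66) and 0.986 to 2.15 CPM in the 6 WT libraries (median 1.25). Its log2 difference was 1.14 (SE 0.36, edgeR adjusted p = 0.999). Icos measured 3.13 to 6.34 CPM in control (median 3.89) and 1.498 to 2.68 CPM in WT (median 2.16), a difference of 0.96 (SE 0.31, edgeR adjusted p = 0.999). Every control library lay above every WT library for both genes. Lat, the adaptor of receptor signalling, measured 5.05 ± 2.57 and 2.71 ± 1.27 CPM (SD, n = 6 each), higher in 6 of 6 (log2 difference 0.92, SE 0.31). Cd5, Cd6, Zap70 and Cd3d followed with 0.92, 0.85, 0.83 and 0.78. Foxp3 differed by 0.74 (SE 0.31), Tcf7 by 0.50 (SE 0.19), Cd4 by 0.44 (SE 0.27) and Itgae by 0.43 (SE 0.23). Gzmb differed by 1.11 with an SE of 0.84, and by 0.29 without control M replicate 3. Eomes (0.16, SE 0.53), Il7r (0.20, SE 0.27) and Bcl11b (0.20, SE 0.16) were nearest to 0.

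Within F, 32 members were higher in control than in WT (51.3% of all genes) and 17 were separate (7.42% of all). Within M, 32 were higher (51% of all genes) and 9 were separate (3.43% of all), among them Foxp3, Ctla4, Icos and Lat. At an unadjusted p under 0.05 there were 2 higher in F (1.58% of all) and 5 higher in M (1.9% of all). The F median of 0.65 was 0.43 without control F replicate 3. The M median of 0.45 was 0.13 without control M replicate 3 and 0.73 without control M replicate 1. Control and WT M libraries of the same number deviated together over genes (correlations of 0.382, 0.376 and 0.424), and with the replicate number as a block the M median was 0.30, with 7 members lower and 0 called by edgeR. Smooth muscle markers were lower in control than in WT for 10 of 10 genes and leukocyte markers higher for 6 of 6. Their part was not tested.

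Black rice and WT lay close together for most members. The count was 19 lower and 15 higher (49.9% of all genes lower), with a median log2 difference of -0.05. It was -0.39 without black rice M replicate 3 and 0.12 without black rice F replicate 3 or black rice M replicate 2. At an unadjusted p under 0.05, 2 members were lower (4.89% of all), Cd28 (-0.58, SE 0.26) and Tcf7 (-0.45, SE 0.20), and 0.0139% of all genes passed the adjusted threshold. Gzmb had the most positive value, 1.41 with an SE of 0.84.

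Across arms of the Apc set 30 members were higher in F than in M (51.3% of all genes), with a median of 0.36, and 10 were higher at an unadjusted p under 0.05 (6.72% of all). The adjusted threshold was passed by 0.074% of all genes. Cd3e was higher by 0.83 (SE 0.33, edgeR adjusted p = 0.272), with 9 of 9 F libraries above the M mean of their arm. Cd3g (0.74), Lat (0.73), Cd27 (0.72) and Zap70 (0.64) were similar, while the 3 regulatory genes were lower, by -0.06 to -0.36. The median was 0.63 without black rice M replicate 3 and 0.57 without control M replicate 3.

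In the AOM set the same diet comparison was made over 11 libraries. On black rice 33 of 34 members were lower, against 53.5% of 21895 genes tested, with a median log2 difference of -0.60 (all genes -0.02). At an unadjusted p under 0.05, 5 were lower (2.31% of all), Cd28, Lat, Foxp3, Ctla4 and Cd69, and edgeR called 0% of all genes. The shared T cell genes had a median of -0.87, the regulatory genes -0.86, the helper genes -0.51 and the cytotoxic genes -0.46. With all 12 libraries the median was -0.61, with 32 lower. Leaving out each library in turn gave medians from -0.77 to -0.44.

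Cd28 measured 0.948 and 1.58 CPM in black rice F, 0.384, 0.102 and 0.486 CPM in black rice M, 4.22, 0.772 and 2.92 CPM in control F, and 0.599, 0.966 and 1.996 CPM in control M. The M groups were separate and the F groups overlapped through control F replicate 2. The log2 difference was -1.39 (SE 0.51, edgeR adjusted p = 1), lower in 5 of 5 libraries. Cd69 differed by -1.30 (SE 0.52) and Ctla4 by -0.98 (SE 0.40), each lower in 5 of 5. Foxp3 differed by -0.86 (SE 0.38), Lat by -0.91 (SE 0.36) and Il2ra by -0.73 (SE 0.33). Cd4 measured 13.9 and 16.3 CPM in black rice F and 42.7, 15.9 and 25.5 CPM in control F. In M it measured 11.7, 4.27 and 6.97 CPM under black rice and 9.33, 10.5 and 9.74 CPM on control, and the groups overlapped in both codes (log2 difference -0.58, SE 0.30). It was -0.35 without control F replicate 1.

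Of the CD3 chains, Cd3g, Cd3e and Cd3d were lower by less, at -0.49 (SE 0.37), -0.41 (SE 0.44) and -0.25 (SE 0.51). Cd247, the remaining CD3 chain, lay with Cd6, Cd5, Cd2 and Cd27 between -1.19 and -0.71. Bcl11b (-0.10) and Gata3 (-0.09) were near 0. Ncr1 lay between 0 and 0.423 CPM, and no read of it was counted in black rice M replicate 2, where 3 reads would have given 0.0768 CPM. Its log2 difference was -1.12 (SE 0.61, edgeR adjusted p = 1). Klrd1, in contrast to the Apc set, differed by -0.01 (SE 0.36). Eomes was the single member that was higher on black rice (0.56, SE 0.55). Over the 11 libraries its log2 level correlated with the sum of epithelial markers at 0.69, the only positive value among the members. Its median level per kilobase of exon was 0.82 CPM, against 0.14 CPM in the Apc set and 0.096 CPM in the third set. Which cells held Eomes RNA was not tested. It measured 2.32 and 4.08 CPM in black rice F and 1.58, 1.76 and 1.65 CPM in control F, which did not overlap. In M it measured 3.65, 4.53 and 3.82 CPM under black rice and 6.75, 3.42 and 0.429 CPM on control, which did.

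By code, 30 members were lower in F (48.4% of all genes) with a median of -0.90, and 23 were lower in M (54.6% of all) with a median of -0.45. At an unadjusted p under 0.05, 5 were lower in F (2.16% of all) and 2 in M (8.37% of all), and edgeR called 0% of all genes in each. In F, 9 members were separate with black rice lower (11.1% of all) and Eomes with black rice higher (8.38% of all). In M, 4 were separate and lower (7.28% of all), Cd28, Tcf7, Foxp3 and Ncr1. Medians by role are given as values, and whether roles differed was not tested. The 10 cytotoxic and NK genes had a median of -0.94 in F, with 8 lower, and of 0.16 in M, with 4 lower and 6 higher. The shared T cell genes had medians of -0.94 and -0.60 in F and M, and the regulatory genes of -0.64 and -1.09. The F median of all members was -0.42 without control F replicate 1. The M median was -0.07 without black rice M replicate 2, -0.19 without control M replicate 3 and -0.70 without control M replicate 2.

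The test of the difference between codes gave 18 members lower (46.1% of all genes) and a median of -0.47, which ran from -0.89 to -0.02 when single libraries were left out and was 0.18 with limma-voom. By role the medians were -0.72 for the cytotoxic and NK genes, -0.62 for the shared T cell genes and -0.71 for the helper genes. They were 0.36 for the regulatory genes and -0.48 for the residence and activation genes. Tbx21 and Cd8b1 had an unadjusted p under 0.05 (6.54% of all genes lower), and edgeR called 0% of all genes. Cd8b1, the beta chain of the CD8 coreceptor, lay at 0.226 and 0.496 CPM in black rice F and 3.03, 1.01 and 1.06 CPM in control F. In M it lay at 1.07, 0.563 and 0.684 CPM under black rice and 0.254, 0.309 and 0.644 CPM on control. Black rice was thus lower in F without overlap and higher in M with overlap. The difference between codes was -3.32 (SE 0.88, edgeR adjusted p = 0.314), and DESeq2 gave -3.38 (adjusted p = 0.0347). It rested on few reads of Cd8b1, 10 and 22 in black rice F and 14, 16 and 30 in control M. Cd8a, the alpha chain, gave -1.32 (SE 0.85).

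The AOM libraries also differed in Wnt genes. The Wnt feedback genes summed to 718 CPM in black rice F replicate 1, 379 and 484 CPM in control F replicates 1 and 2, and 656 CPM in control M replicate 3. The other 7 libraries lay between 42.6 and 155 CPM. Tcf7 was 56.1, 58.2, 31.9 and 44.9 CPM in those 4 libraries and 5.12 to 15.8 CPM in the others. Zap70, the receptor kinase, was 5.80, 6.73, 5.90 and 4.21 CPM in the same 4 and 0.768 to 2.09 CPM in the others. Gata3 divided by less, at 5.57, 4.56, 2.57 and 3.31 CPM in the 4 and 0.563 to 2.48 CPM in the others. Cd3e did not divide in this way, at 1.47, 5.06, 2.20 and 2.34 CPM in the 4 and 0.512 to 2.54 CPM in the others. Correlations with the Wnt sum over the 11 libraries were 0.95 for Tcf7, 0.94 for Zap70, 0.77 for Foxp3, 0.76 for Gzmb and 0.75 for Gata3. For Bcl11b the value was 0.70 and for Cd3e 0.41, and only Eomes (-0.66) and Tbx21 (-0.19) were negative. The diet differences of Tcf7 (-0.97, SE 0.55), Zap70 (-0.87, SE 0.51) and the other members were read over these libraries. The part of the Wnt genes in these differences was not tested.

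**Figure D3:**
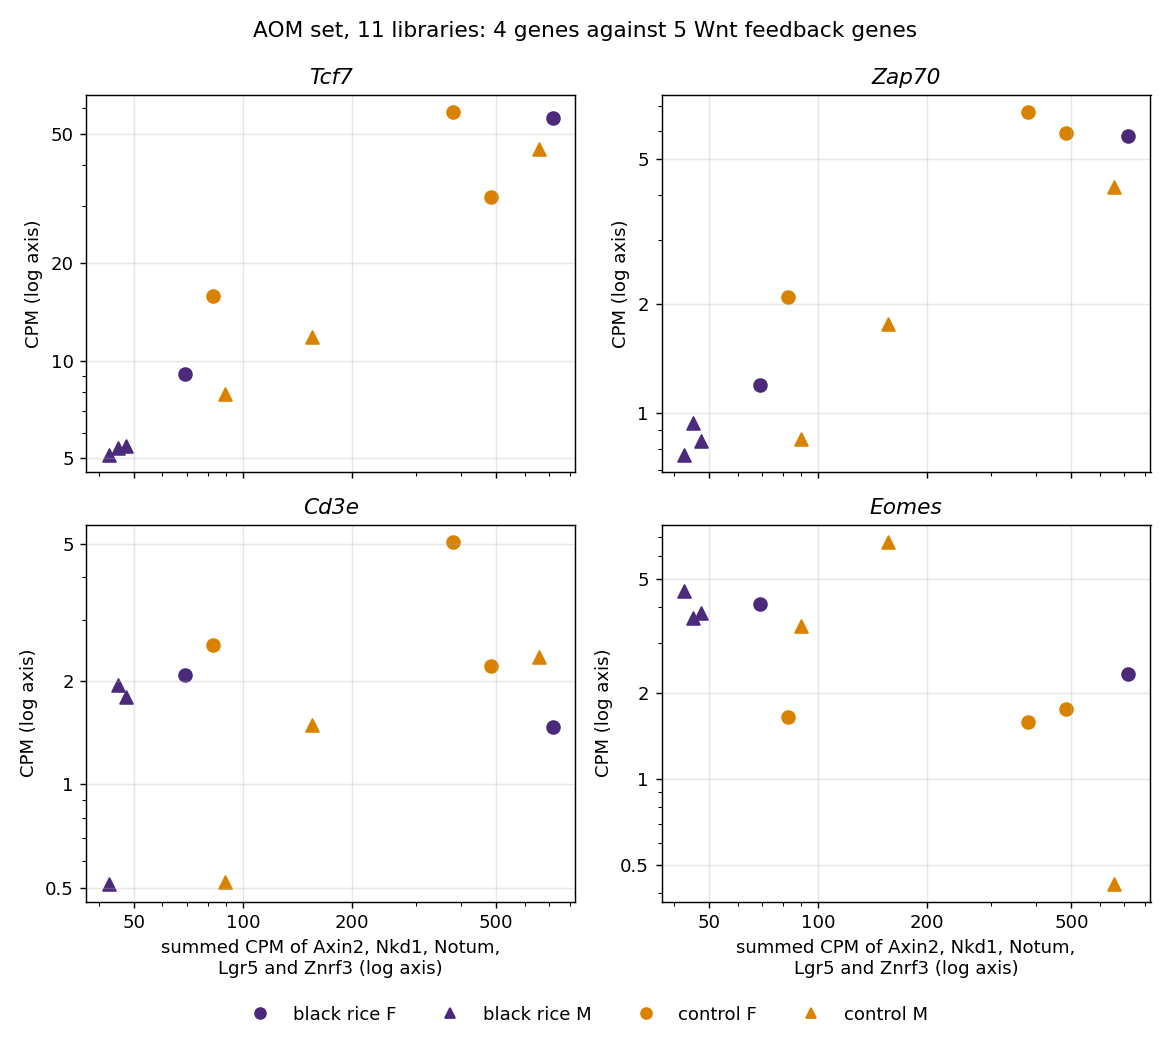
CPM of 4 members against the summed CPM of 5 Wnt feedback genes in the 11 AOM libraries, both axes logarithmic, coloured by diet with circles for F and triangles for M. Tcf7 and Zap70 are high (31.9 to 58.2 and 4.21 to 6.73 CPM) in the 4 libraries with the highest Wnt sums, whereas Cd3e spans 1.47 to 5.06 CPM in them and Eomes spans 0.429 to 2.32 CPM.

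B cell markers were high in the same libraries as many of the members. Over the 11 libraries, log2 levels correlated with the B cell sum at 0.93 for Cd28, 0.95 for Lat and 0.78 for Foxp3. Ctla4 (0.82) and Cd69 (0.96) complete the 5 members that were lower at an unadjusted p under 0.05. The lowest positive values were 0.39 for Gzma and 0.40 for Bcl11b, and Eomes alone was negative (-0.57). The B cell list summed to 463 and 267 CPM in control F replicates 1 and 3 and to at most 95.0 CPM in the 9 others. Control F replicate 1 also held the highest sum of the shared T cell genes (172 CPM) and of lymphoid stroma markers (310 CPM). Cd69 was 4.93 and 3.83 CPM in these 2 libraries and at most 1.31 CPM elsewhere. Icos was 8.78 and 4.57 CPM in them and at most 2.55 CPM elsewhere. All 10 B cell genes were lower on black rice (median log2 difference -1.75), and their part in the T cell values was not tested. The log2 ratio of Cd3e to the B cell gene Cd79a was higher on black rice by 1.195 (exact permutation test, p = 0.11, adjusted p = 0.686).

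Over both diets 31 members were higher in F than in M (49.2% of all genes), with a median of 0.83, and 12 were higher at an unadjusted p under 0.05 (5.6% of all). The share of all genes past the adjusted threshold was 0.0365%. Cd4 measured 13.9, 16.3, 42.7, 15.9 and 25.5 CPM in the 5 F libraries and 4.27 to 11.7 CPM in the 6 M libraries (median 9.54). It was the one member without overlap (0.443% of all), with a log2 difference of 1.13 (SE 0.30, edgeR adjusted p = 0.571). Tcf7 (1.61), Cd5 (1.56), Zap70 (1.504) and Cd28 (1.49) had higher values with wider overlap. All 10 B cell genes were also higher in F, each at an unadjusted p under 0.05.

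In the third set black rice and control differed little in shared T cell genes. Of 34 members 13 were lower and 21 higher (48.7% and 51.3% of 20831 genes tested), with a median log2 difference of 0.07 that was -0.11 without black rice replicate 1. Gzma alone had an unadjusted p under 0.05 (4.12% of all genes higher, 3.81% lower), and edgeR, which called 0% of all genes, did not call it. The shared genes had a median of 0.02, with 9 higher and 6 lower, the helper genes -0.26 and the cytotoxic genes 0.35, with 9 of 10 higher.

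Gzma (ENSMUSG00000023132) lay at 20.4, 16.5, 4.10 and 5.51 CPM under black rice and 2.76, 2.64, 1.75 and 6.76 CPM on control. Black rice replicates 1 and 2 were far above all controls, and control replicate 4 lay above the other black rice libraries. The log2 difference was 1.71 (SE 0.59, edgeR adjusted p = 0.56), higher in 4 of 4, and ran from 1.27 to 2.23 when single libraries were left out. Klrd1 followed with 1.06 (SE 0.58), then Cd8a with 0.63 (SE 0.45), Ccl5 with 0.60 (SE 0.35) and Gzmb with 0.42 (SE 0.48). Cd8a lay at 7.02, 5.57, 2.09 and 3.09 CPM under black rice and 2.73, 1.68, 1.86 and 4.96 CPM on control. The same 3 libraries, black rice replicates 1 and 2 and control replicate 4, were highest for Cd3e, Cd3g, Cd8a, Gzma, Gzmb, Klrd1 and Ccl5. They also had the lowest smooth muscle sums of the set, 10632, 9055 and 2954 CPM against 14522 to 28858 CPM in the other 5. B cell and plasma cell sums were highest in black rice replicates 1 and 2, at 32.1 and 15.8 CPM and at 3909 and 3096 CPM. All 10 B cell genes were higher on black rice (median log2 difference 0.79, 0 at an unadjusted p under 0.05). The part of these cell types in the values was not tested. Cd8b1 (0.07, SE 0.25), Nkg7 (0.02, SE 0.38) and Eomes (-0.11, SE 0.25) were near 0, and Prf1 and Ncr1 differed by 0.28 each with SEs of 0.49 and 0.57.

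Cd4 went the other way from Cd8a. It lay at 5.72, 5.30, 2.80 and 3.69 CPM under black rice and 7.22, 4.82, 4.56 and 6.35 CPM on control, which overlapped. Its log2 difference was -0.44 (SE 0.27, edgeR adjusted p = 0.711), lower than the control mean in 4 of 4 libraries. The log2 ratio of Cd8a to Cd4 was -0.08 ± 0.32 on black rice and -1.14 ± 0.53 on control (SD, n = 4 each). They differed by 1.06 (exact permutation test, two-sided p = 0.0571, adjusted p = 0.686 over 24 tests). The log2 ratio of Gzma to Cd3e differed by 1.11, with p = 0.0286, the smallest that the exact test allows for 4 against 4, and an adjusted p of 0.686. Of the rest, Cd3g differed by 0.62 (SE 0.37), Cd3e by 0.49 (SE 0.44), Il2ra by 0.26 (SE 0.24), Foxp3 by -0.15 (SE 0.22) and Ctla4 by -0.11 (SE 0.34). Itgae differed by 0.29 (SE 0.31), and by 0.10 without black rice replicate 2.

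**Figure D4:**
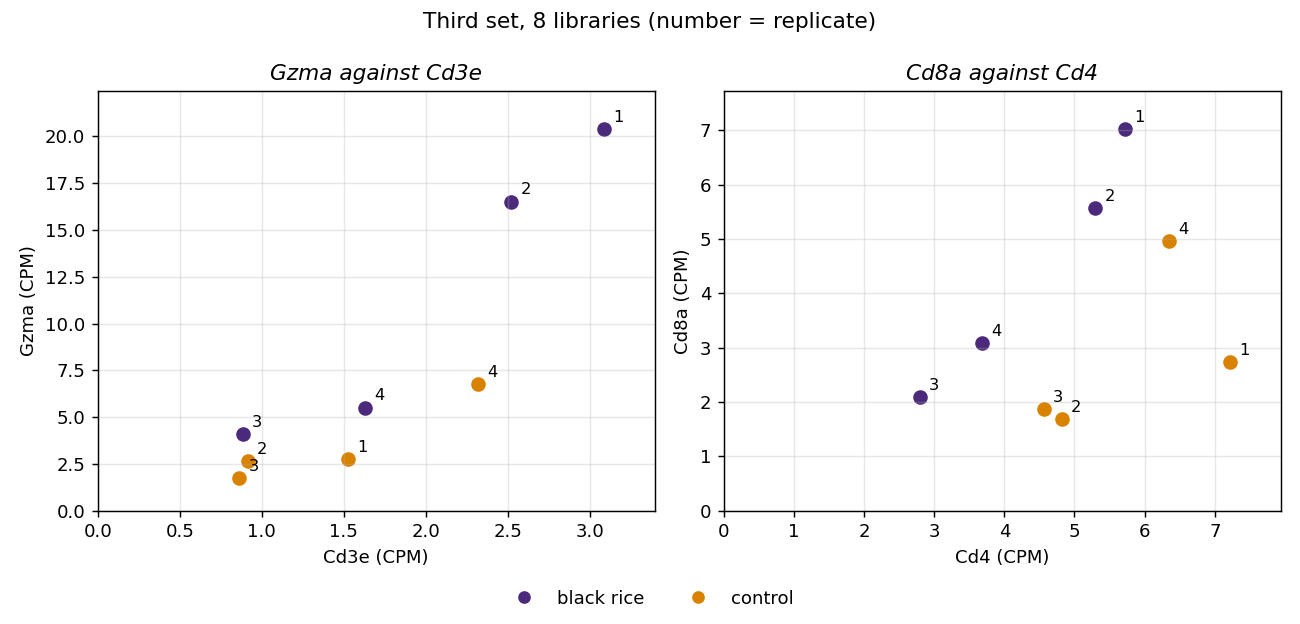
Gzma against Cd3e and Cd8a against Cd4 in the 8 libraries of the third set, in CPM on linear axes from 0, numbered by replicate and coloured by diet. The mean log2 ratio of Cd8a to Cd4 is -0.08 on black rice and -1.14 on control, with control replicate 4 among the black rice libraries, and black rice replicates 1 and 2 stand out with 20.4 and 16.5 CPM of Gzma.

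The 3 sets were fitted separately and are set side by side only as values. For black rice against control, Cd28 differed by -1.05, -1.39 and 0.32 in the Apc set, the AOM set and the third set, Ctla4 by -1.21, -0.98 and -0.11, and Cd4 by -0.93, -0.58 and -0.44. Gzma differed by -0.94, -0.61 and 1.71, and Klrd1 by -0.80, -0.01 and 1.06. Whether the sets differ was not tested. Levels per kilobase of exon allow genes to be ranked within an arm. Ccl5 had the highest median in each arm of the Apc set (9.61 CPM per kb with black rice, 17.6 in control and 10.1 in WT) and of the third set (15.8 and 11.2 in black rice and control). Tcf7 led in AOM control (9.09 CPM per kb) and Cd4 in AOM black rice (2.90), where Tcf7 came after Ccl5 (2.09 and 2.14). Gzma came next to Ccl5 in black rice of the third set (10.9 CPM per kb) and Gzmb in its control (4.59). Lowest were Foxp3 in Apc black rice (0.135), Ncr1 in AOM black rice (0.0416) and Prf1 in AOM control (0.0981) and in control of the third set (0.0949), and Eomes in the remaining arms.

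Wider lists of T cell genes, none of them members, were read in the same fits. In the Apc set the 7 constant chains of the T cell receptor were lower on black rice, each at an unadjusted p under 0.05 (6.06% of all genes; 50.9% were lower at any p), with a median log2 difference of -0.90. Both kinds of receptor were included, with Trac at -0.90 (SE 0.35) and Trdc at -0.90 (SE 0.36). Of 22 genes of T cell signalling 20 were lower (median -0.53), of 11 regulatory and checkpoint genes 10, and of 18 tested cytotoxic and intraepithelial genes 15. Tigit, an inhibitory receptor, differed by -1.87 (SE 0.38, edgeR adjusted p = 0.131) and Cd7, a surface antigen of intraepithelial and other T cells, by -1.37 (SE 0.31, edgeR adjusted p = 0.156). Of 14 tested innate lymphoid and cytokine genes 9 were lower (median -0.16). In the AOM set the receptor chains divided, with 4 lower and 3 higher, while 22 of 22 signalling genes were lower (median -0.89; 53.5% of all genes were lower). In the third set all 7 receptor chains were higher on black rice (51.3% of all genes). The gamma delta chains Tcrg-C1 (1.25, SE 0.46), Tcrg-C2 (1.17, SE 0.44) and Trdc (0.76, SE 0.33) differed by more than the alpha beta chains Trac (0.11, SE 0.32) and Trbc2 (0.18, SE 0.28), a contrast between genes that was not itself tested. The Tcrg chains are near-identical copies, so reads may have been lost or shared between them.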

How the data were processed

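RNA of 38 intestinal libraries was sequenced. The authors deposited 3 tables of whole-number read counts per gene, counted on read pairs with no strand option in the headers of the AOM and last tables (the Apc header records no command), so overlapping and antisense genes cannot be separated. Per the submitters' processing notes, FastQC, fastp, HISAT2, SAMtools and featureCounts (Subread) were used with GRCm39. Versions are not given in the sources used here, except featureCounts 2.0.1 with Ensembl annotation 104, per the file headers of the same 2 tables. Every count column was mapped by its name.

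The 34 members and all lists were chosen with earlier results of these data known. Counts were filtered with filterByExpr, scaled with TMM and tested in edgeR 4.0.16 (R 4.3.3) by the quasi-likelihood F test, 1 fit per set over all its groups, with Benjamini-Hochberg adjustment over all genes tested and a threshold of 0.05. Genes named as leading a role had the smallest unadjusted p in it, in 4 comparisons; others are named to account for the members. CPM are counts scaled by each library's total without TMM, ± is the SD, and levels per kilobase used GENCODE M21 exon lengths. DESeq2 1.42.0, limma-voom (limma 3.58.1), other filters and scalings, a replicate block and leaving out each library were alternatives. Ratios were taken on read counts with a pseudocount of 0.5 reads and used exact permutation within code. The smallest p possible was 0.005 in the Apc and AOM sets and 0.0286 in the third set. A ratio that differed alone could therefore not pass 0.05 after adjustment over 24 tests. Of 42 pairs of libraries within groups, 0 were identical. No label says that replicate numbers pair the libraries; deviations of same-numbered libraries correlated above 0.1 in every pair only for Apc control and WT M, among the group pairs of 3 or more checked. Fits were also run on simulated counts with changes of known size. Each gene was drawn independently there, so the correlation between members was not covered, and the share of changes recovered is not given here.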

Additional observations from a re-analysis of the deposited data

Results flagged for a closer look

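In the control group of the third set, 1 library stood apart from the other 3 for 3 of the members. There were 68 such checks, of which chance flags about 1 in 20. They covered the black rice and control groups of this set, with 4 libraries each. Groups of the other sets were not checked. Cd3g was 5.34 CPM in control replicate 4, against 3.13 to 3.50 CPM in the others. Tbx21 was 0.796 CPM in the same library, against 0.494 to 0.515 CPM. Gata3 was 1.22 CPM in control replicate 1, against 0.501 to 0.530 CPM.

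Il2ra went in opposite directions in 2 sets. The log2 difference of black rice from control was -0.73 in the AOM set and 0.26 in the third set, which differ by -0.98. Every AOM black rice library lay below the control mean of its code, and every black rice library of the third set lay above its control mean. The difference was not tested.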

How the results depend on the processing

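Counts of genes called depended on the tool. No member was called by edgeR under any filter, scaling, choice of groups or library left out, whereas DESeq2 called 2 members for black rice against control in the Apc set, 2 in F and 1 in the AOM test between codes, and limma-voom called 1 and 1 in the first 2 of these. Tcf7 passed with both. Over all genes, DESeq2 against edgeR called 202 against 3 for Apc black rice and control, 201 against 0 in F, 151 against 7 in M, 132 against 0 between codes, 24, 2 and 18 against 0 for control and WT over both codes, in F and in M, 72 against 3 for black rice and WT, 528 against 16 for F and M, 13, 3, 255 and 175 against 0 for the AOM diet comparisons, 74 against 8 for AOM F and M, and 136 against 0 in the third set. The limma-voom counts were 17 for Apc diet, 103 in F, 19 between codes, 0 for black rice and WT, 128 for F and M and 2 in the third set. With a filter of 10 reads 6 genes were called for Apc diet and 2 in F, and with 1 CPM in 3 libraries 3 in F. Fitting only the compared groups gave 1, 0 and 0 for Apc diet, Apc diet in M and black rice against WT, and RLE scaling gave 0 for the last. Leaving out single libraries gave 1 to 6 genes for Apc diet, 0 to 4 in F, 0 to 2 in M, 0 to 7 between codes, 0 to 2 for black rice and WT, 10 to 67 for F and M, and 0 to 1 in the third set. The median member difference ran from -1.26 to -0.13 for Apc diet in M and from -0.65 to 0.31 between codes, and was 0.18 with limma-voom for the AOM test between codes. With all 12 AOM libraries the log2 ratio of Cd8b1 to Cd8a was 0.0741 and that of Gzma to Cd3e 0.0821. Without single libraries the ratio of Cd3e to Cd79a ran from -0.165 to 1.04 for Apc diet, -0.0703 to 0.870 for control and WT and -0.218 to 0.215 in the third set. Cd8a to Cd4 ran from -0.497 to 0.219 for control and WT. For Apc diet and then control and WT, Cd8b1 to Cd8a ran from -0.127 to 0.204 and -0.0284 to 0.318, Foxp3 to Cd3e from -0.0583 to 0.382 and -0.0300 to 0.208, and Gzma to Cd3e from -0.150 to 0.712 and -0.700 to 0.0440. The cause was not tested. With the replicate number as a block, edgeR called 0 members in each comparison, Tcf7 differed by -0.93 (adjusted p = 0.249), and 1, 2, 0 and 10 genes were called for Apc diet, Apc diet in M, black rice and WT, and F and M. Deviations of libraries of the same number correlated above 0.1 in 6 of 18, 3 of 5 and 1 of 4 pairs, including the 3 pairs of Apc control and WT M. Members of a few reads, such as Ncr1 and Prf1 in the AOM set and Cd8b1 in some of its libraries, are limited by counting error.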

Other observations

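Regulatory and checkpoint genes outside the 34 members were read for control against WT in the Apc set. All 11 were higher in control over both codes (50.9% of all genes), 6 of them at an unadjusted p under 0.05 (2.21% of all), with a median log2 difference of 0.63, and edgeR called 0 of them. Their sums overlapped, at 33.5 to 56.9 CPM in control and 16.5 to 51.1 CPM in WT. Ccr8, a chemokine receptor of regulatory T cells, differed by 2.01 (edgeR adjusted p = 0.47), the anti-inflammatory cytokine gene Il10 by 1.54, Tigit by 1.11 and Lrrc32, a surface protein of activated regulatory cells, by 0.77. For black rice against WT 3 of the 11 were lower and 8 higher, with a median of 0.16. The receptor chains differed in another way, with 7 of 7 lower on black rice than in WT (median -0.78, 4 at an unadjusted p under 0.05, against 4.89% of all genes). These comparisons share libraries.

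In the third set Zbtb16, a transcription factor of innate-like T cells, was higher on black rice by 2.22 (SE 0.82, edgeR adjusted p = 0.59). The effector genes Klrg1 and Ifng differed by -0.84 and -0.87.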
